A study of Mus musculus with 14 samples.

Results

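The sites described here are the poly(A) sites that 3P-seq placed on the mitochondrial genome of the mouse. 3P-seq sequences the last stretch of an RNA before its poly(A) tail, so each tag marks a 3′ end that carried a tail. The rule took every deposited entry on chrM, on both strands and in all 14 libraries, which gave 10722 of 1066977 entries. Entries of the same strand were joined where their intervals overlapped or touched, which left 52 regions of 159969 in the whole series, 25 on the plus strand and 27 on the minus strand. Ends lie so densely on this genome that joining chained neighbouring ends into regions of up to 2673 nt. Each region was therefore also resolved into 3′ ends, an end being all tags within 15 nt of its most abundant position, and this gave 947 ends. Of these, 305 held tags in all 14 libraries and 33 in a single library. The 10 ends that averaged at least 0.5% of the mitochondrial tags of a library, with the 14 libraries weighted equally, are called the main ends.

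Mitochondrial DNA is transcribed from both strands into long precursors that carry many genes in a row. The tRNAs stand between most of the mRNAs and rRNAs like punctuation, and cutting them out of the precursor leaves the 3′ ends of their neighbours. A tail is then added by a mitochondrial poly(A) polymerase, and at some mRNAs it completes a stop codon that the DNA encodes only in part. Nearly all mRNAs are read from 1 strand, written here as plus, whereas Nd6 and a minority of the tRNAs lie on the minus strand.

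The 12 tissue libraries comprise 1 from miR-22 knockout mice and 1 from wild-type mice for each of 6 tissues: heart, muscle, kidney, liver, lung and white adipose tissue. miR-22 is a microRNA, a short RNA that lowers the output of mRNAs it pairs with, and the labels also write the knockout as miR-22D. The 2 cell-line libraries came from mESC, mouse embryonic stem cells, and from 3T3, a mouse fibroblast line, and their labels name no genotype. All 14 carry the genetic background 129S5/SvEvBrd in the labels. No group was replicated, and the labels do not say which tissues shared an animal. All p-values below thus rest on the spread between libraries and tissues, and not on that between animals of a group. The edgeR test described below also draws the spread of each site toward that of all tested sites. The deleted locus and the markers of each tissue were not looked up here, so genotype and tissue names rest on the labels.

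Depth ran from 2036838 tags per library, in knockout adipose tissue, up to 6010465, in knockout lung, and the mitochondrial genome took 6381986 of the 51014728 tags. Its share of a library was 2.43% in mESC and 7.34% in 3T3. In the 12 tissue libraries it was 3.52% at the lowest, in wild-type lung, 14.4% at the median and 31.3% at the highest, in knockout heart. Counting error is small at these depths except where ends of under 100 tags are named. The cell-line libraries also differed from the tissue libraries in the entries themselves. The median interval of a mitochondrial tag was 28 nt long in both cell lines and 32 nt in every tissue library. Library preparation and kind of cell can therefore not be told apart in any difference between cell lines and tissues.

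The main ends lay on the borders of genes. Of the 10, 8 were within 2 nt of the end or of the start of an annotated gene on the same strand. Ends with such a position held between 70.7% of the mitochondrial tags, in knockout kidney, and 92.1%, in 3T3. The 3 ends of mRNAs among them belonged to Nd1 at position 3705, Nd4 at position 11544 and Cytb at position 15288, all on the plus strand of chrM in mm9. Nd1 and Nd4 encode subunits of respiratory complex I, and Cytb encodes the cytochrome b of complex III. The Nd1 end stood 1 nt before the gene for tRNA-Ile, the Nd4 end 2 nt before tRNA-His and the Cytb end 1 nt before tRNA-Thr. The most abundant position was the same in 14 of 14 libraries at the Nd1 and Cytb ends, and in 13 at the Nd4 end.

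The rRNAs and tRNAs gave 4 further main ends at their 3′ termini. The 12S rRNA of the small mitochondrial ribosomal subunit ended at position 1024, 1 nt before tRNA-Val. The 16S rRNA of the large subunit ended at position 2675, 1 nt before tRNA-Leu1. A main end at position 1092 lay at the 3′ end of tRNA-Val, and another at position 11665 lay 6 nt inside that of tRNA-Ser2. These tRNA ends were less sharp: the most abundant position was shared by only 6 libraries at tRNA-Val and 4 at tRNA-Ser2. Mitochondrial rRNAs are known to carry short A tails, and tailed tRNAs are known as intermediates of maturation or decay.

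The other 3 main ends were not at the annotated 3′ end of a gene. One at position 3844 lay 1 nt before tRNA-Met, on the strand opposite to tRNA-Gln, so an RNA that ends there and reaches back over tRNA-Gln carries its antisense. One at position 14143 lay 2 nt before Cytb and 578 nt past the annotated end of Nd5. In the stretch between them Nd6 and tRNA-Glu lie on the other strand. Whether Nd5 mRNAs reach to this end was not tested, so it may be an mRNA end that the annotation does not hold. The last, at position 606, lay within the 12S rRNA, 418 nt before its end.

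Many annotated gene ends carried no tag. Of the 13 mRNA ends, 6 had a tag within 15 nt in any library and 5 had more than 100 over all libraries, namely Nd1, Nd2, Nd4, Nd5 and Cytb. Nd6, the mRNA of the minus strand, had 80 tags in all. Both rRNA ends and 13 of the 22 tRNA ends had tags. No tag ended at Co1, Co2 or Co3, which encode subunits of complex IV, at Atp8 or Atp6 of complex V, or at Nd3 or Nd4l of complex I. Those genes lie together, and no entry on either strand covered positions 6428 to 9803 or positions 9840 to 11017 in any library. These 2 stretches make up most of the 5573 nt without an entry, which were split over 22 stretches. The mouse nuclear genome is known to hold near-identical copies of mitochondrial DNA, and how tags that match more than 1 place were treated was not given in the sources used here. Their part in the empty stretches was not tested, and a missing entry does not show a missing transcript. Shares below are shares of the tags that were placed.

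**Figure D1:**
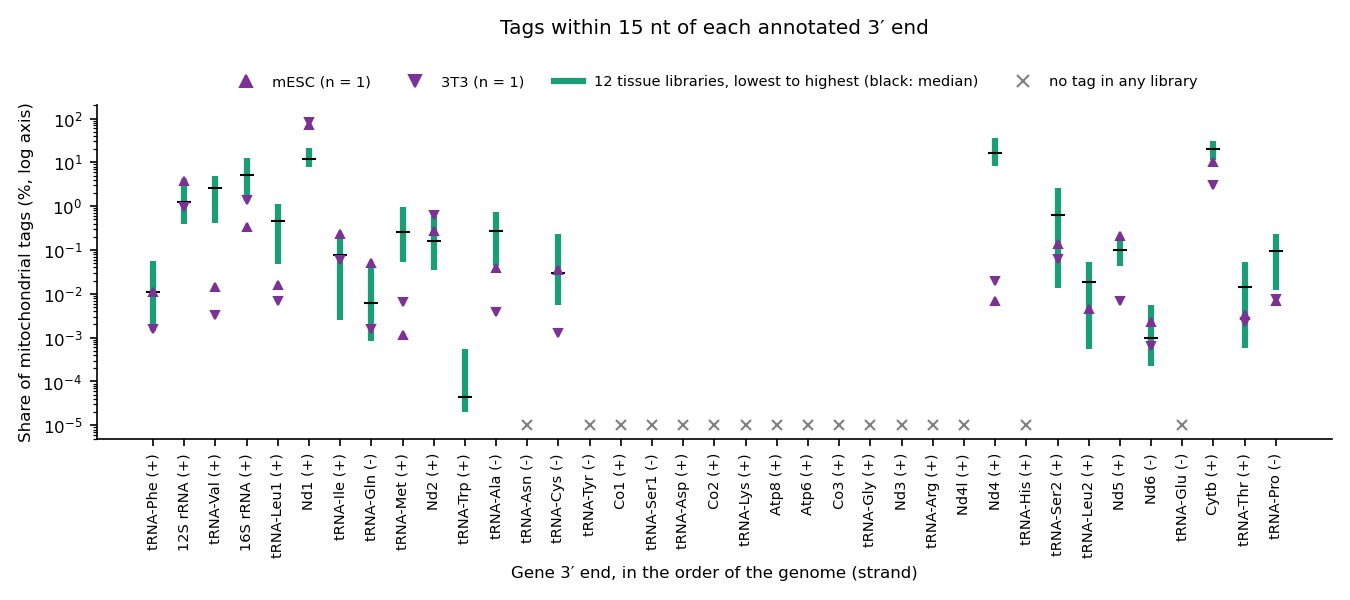
Share of mitochondrial tags (%, log axis) within 15 nt of each annotated gene 3′ end, with genes in genome order and their strand in brackets. Triangles are the 2 cell lines where they had a tag, bars run from the lowest to the highest of 12 tissue libraries (values under 0.00002% drawn at that level) with a black median, and crosses mark ends with no tag in any library. In tissues the ends of Nd1, Nd4, Cytb, the rRNAs and tRNA-Val stand highest, and the row of crosses from Co1 to Nd4l marks gene ends without tags.

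In every library the most abundant end was that of Nd1, Cytb or Nd4 or the end before tRNA-Met. The Cytb end led both lung libraries, knockout muscle, wild-type heart and wild-type adipose tissue. The Nd1 end held 71.7% of mitochondrial tags in mESC and 84.4% in 3T3, and between 7.84% and 21.6% in the 12 tissue libraries with a median of 11.7%. The Cytb end held 10.2% in mESC, 3.12% in 3T3 and between 11.1% and 30.8% in the tissues, with a median of 19.8%. In the cell lines a single end thus held most of the tags, whereas no end of a tissue library held more than 35.9%.

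The end before tRNA-Met spanned the widest range of the main ends in percentage points of share between tissue libraries, though not in fold. It held 4.29% of mitochondrial tags in knockout and 5.11% in wild-type adipose tissue. It held 25.5% in knockout and 33.7% in wild-type kidney, where it was the most abundant end of both libraries. Liver was close, with 23.9% in the knockout and 26.6% in the wild type, and it led both liver libraries too.

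In heart the same end held 29.9% in the knockout library and 16.6% in the wild-type library. Muscle had 12.5% in the knockout and 18.6% in the wild type, and lung had 15.7% and 15.5% in knockout and wild type. The adipose libraries were the lowest pair, and no other tissue overlapped them.

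The Nd4 end went the other way in adipose tissue, where it was the most abundant end in the knockout library. It held 35.9% there and 29.1% in wild-type adipose tissue, above the 10 other tissue libraries. The lowest were knockout and wild-type kidney, with 8.97% and 8.42%. Heart had 9.38% in the knockout and 17.7% in the wild type, muscle 21.4% and 14.7%, liver 11.7% and 17.7%, and lung 17.3% and 14.5%, each pair given as knockout and wild type.

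The 16S rRNA end held between 1.30% and 12.8% of mitochondrial tags in the tissues, with a median of 5.04%. The highest value was that of knockout liver, against 4.80% in wild-type liver. The 12S rRNA end was less abundant than the 16S rRNA end in all 12 tissue libraries, and held between 0.393% and 4.14%. The 16S rRNA end had between 1.92 and 7.57 times the tags of the 12S rRNA end in tissues, and 0.0919 times in mESC and 1.46 times in 3T3. The tRNA-Val end held between 0.421% and 4.85% in tissues, the tRNA-Ser2 end between 0.0834% and 2.73%, and the end within the 12S rRNA between 0.242% and 2.62%. The end before Cytb held between 0.0850%, in knockout lung, and 3.02%, in knockout kidney.

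**Figure D2:**
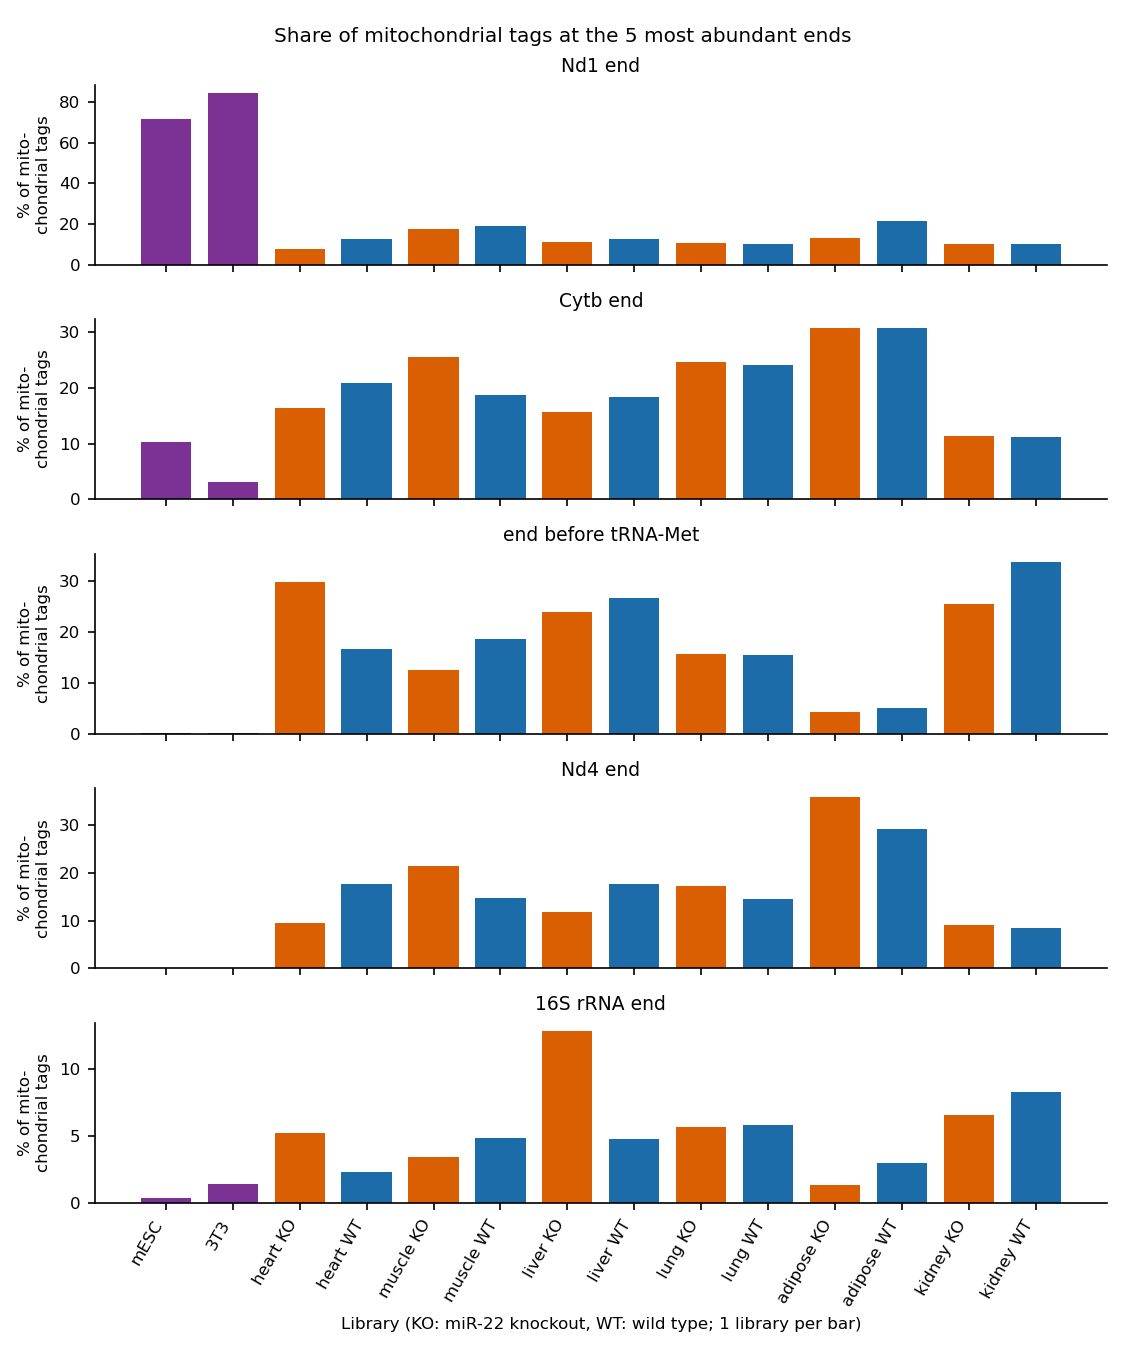
Share of mitochondrial tags (%) in each library at the 5 most abundant ends, with 1 bar per library (purple: cell lines, orange: miR-22 knockout, blue: wild type); the vertical scale differs between panels. The Nd1 end dominates mESC and 3T3, the end before tRNA-Met is lowest in both adipose libraries among tissues, and the Nd4 end is highest there.

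Sorted by kind of place, tags at the annotated ends of mRNAs made up between 29.7% of mitochondrial tags, in wild-type kidney, and 81.7%, in wild-type adipose tissue. They made up 82.4% in mESC and 88.2% in 3T3. The end before Cytb is not counted there but among ends just before a gene. Ends just before a gene, of which the end before tRNA-Met is the main one, made up 5.87% to 34.2% in tissues, with both adipose libraries lowest, and 0.854% in mESC and 0.860% in 3T3. Tags within the rRNAs made up 1.76% to 11.3% in tissues. Tags at tRNA ends made up 0.645% to 7.99% in tissues, against which mESC had 0.415% and 3T3 0.140%. The 10 main ends together held between 72.2%, in knockout kidney, and 91.8%, in wild-type adipose tissue.

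**Figure D3:**
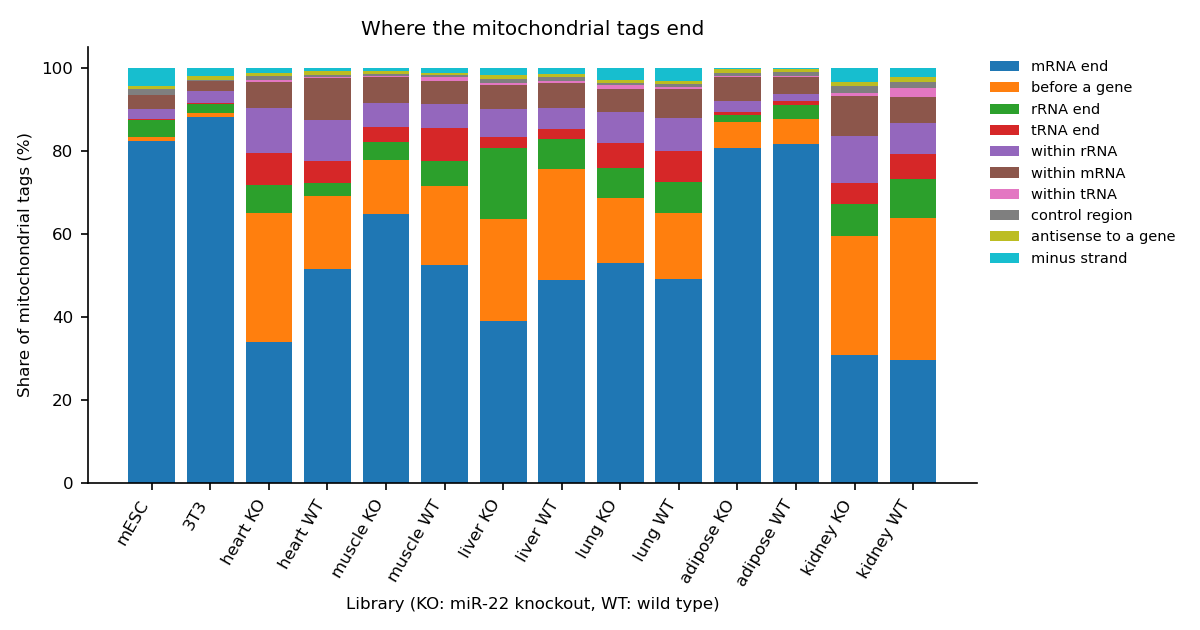
Composition of the mitochondrial tags of each library (% of mitochondrial tags, 1 bar per library) by where the end lies; all classes but the last are on the plus strand. Both adipose libraries and both cell lines consist mostly of mRNA ends, and kidney and knockout heart have the smallest shares of them.

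The study set miR-22 knockout against wild type, and none of the 10 main ends was called between them. An edgeR quasi-likelihood test with a term for each tissue was fitted to all sites of the genome, and adjusted p-values are over all sites tested. It was run on abundance per library and on the share of mitochondrial tags. In both, 0 of 10 main ends had an adjusted p under 0.05, by edgeR and by DESeq2, against 0.238% of all 24374 tested sites in abundance and 0.263% in share. The same held for the 10 main regions as joined by overlap, with 0 of 10 against 0.344% in abundance and 0.381% in share. At an unadjusted p under 0.05 there were 2 ends in abundance and 0 in share. The median log2 difference of the main ends was -0.28 in abundance and -0.03 in share, against -0.02 and 0.21 over all tested sites.

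Between knockout and wild type, the Nd1 end held 7.84% at the lowest, 10.8% at the median and 17.5% at the highest of the 6 knockout libraries, against 9.97%, 12.5% and 21.6% in the 6 wild-type libraries. Its log2 difference in share was -0.27 ± 0.34 over the tissues (SD, n = 6), and it was higher in the knockout in 1 of 6 tissues. The ranges of the genotypes overlapped, as they did at each main end. In abundance, the Nd1 end was one of the pair with an unadjusted p under 0.05, with a log2 difference of -0.52 (SE 0.25, adjusted p = 0.718 by edgeR). The other was the tRNA-Val end, with -0.59 (SE 0.26, adjusted p = 0.690 by edgeR).

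The largest log2 difference in share among the main ends was that of the end before Cytb, 0.85 (standard error 0.43, edgeR adjusted p = 0.623). Its share was 0.0850% at the lowest, 0.981% at the median and 3.02% at the highest in knockout libraries, against 0.218%, 0.480% and 1.01% in wild-type libraries. Knockout heart, adipose tissue and kidney lay above every wild-type library. It was higher in the knockout in 5 of 6 tissues and lower in lung, where the knockout had 0.0850% and the wild type 0.509%. The log2 ratio of this end averaged 0.72 ± 1.86 over the tissues (SD, n = 6), a wide spread beside the standard error of the fit. With 1 tissue pair left out, the log2 difference ran from 0.44 without kidney (edgeR adjusted p = 1.00) to 1.37 without lung (edgeR adjusted p = 0.0731). The Cytb end had a log2 difference of -0.01 ± 0.27 over the tissues (SD, n = 6), and the Nd4 end had -0.05 ± 0.57. The 16S rRNA end was higher in the knockout by 1.42 on the log2 scale in liver and by 1.19 in heart, and differed by -1.19 in adipose tissue, so its mean of 0.09 came with an SD of 1.01.

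The share of the whole mitochondrial genome in a library averaged 14.4% ± 10.3 in the knockout and 14.9% ± 8.91 in the wild type (SD, n = 6 each). The log2 ratio of knockout over wild type within a tissue averaged -0.06 ± 0.38 (SD, n = 6), and the knockout was higher in 2 of 6 tissues, heart and lung. An exact sign-flip permutation test over the 6 tissues, two-sided, gave p = 0.688, where the smallest p that 6 pairs allow is 0.0312. A p that misses the threshold does not show that the genotypes are alike.

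**Figure D4:**
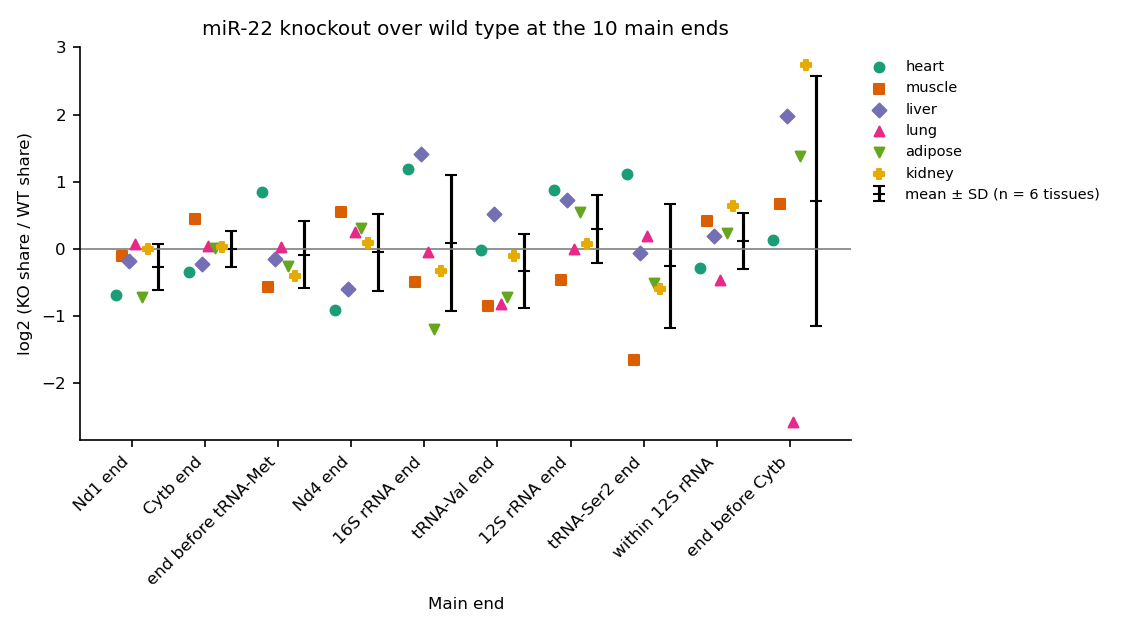
Log2 ratio of the miR-22 knockout share over the wild-type share of mitochondrial tags at each main end, with 1 symbol per tissue and the mean ± SD over 6 tissues in black. All means lie within 1 SD of 0, and the tissues of an end fall on both sides of 0.

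Below the main ends, 5 of the 567 tested mitochondrial ends were called in share between knockout and wild type, 3 higher and 2 lower, against 0.238% higher and 0.0246% lower among all tested sites. All were sparse and lay inside genes. The ends at positions 13315 and 12370 within Nd5 and 14530 within Cytb were higher in the knockout, with 239, 1306 and 793 tags over the 6 knockout libraries against 49, 594 and 318 over the 6 wild-type libraries. The ends at 14406 within Cytb and 2889 within Nd1 were lower, with 0 and 62 tags against 49 and 153. With 0 tags in the knockout libraries, the end at 14406 passed the count filter through wild-type libraries alone. Its calls in share and in abundance are therefore no support for a genotype difference. The end at 12370 had an adjusted p of 0.0200 by edgeR and was higher in the knockout in 6 of 6 tissues, with a share of 0.0437% at the median of the knockout libraries and 0.0107% at that of the wild type. All 5 lost their call without a term for tissue. DESeq2 called 1 mitochondrial end, which was none of these 5. It did not call the 3 that were higher and gave no adjusted p for the 2 that were lower. Leaving out the muscle pair ended the call at 13315 (adjusted p = 0.0881), 14530 (0.0650) and 14406 (0.0897). Without the liver pair it ended at 14530 (adjusted p = 0.112) and 2889 (0.0892), without the kidney pair at 2889 (0.133) and 14406 (0.0504), and without the heart pair at 14406 (0.229). The number called ranged from 3 without muscle to 14 without lung. In abundance, 1 of the 567 ends was called higher and 3 lower, against 0.189% and 0.0492% of all tested sites. The ends at 12370 and 14530 were not called in abundance (edgeR adjusted p = 0.0629 and 0.171). Among the 49 tested regions joined by overlap, 0 were called in either measure, with 1 at an unadjusted p under 0.05 in abundance and 3 in share.

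Between tissues, most main ends differed in abundance, upwards in heart and muscle and downwards in lung. Each tissue was set against the mean of the other 5 with genotype as a term. In heart 10 of 10 main ends were higher by edgeR, with a median log2 difference of 2.24, against 17.4% of all tested sites and a median of -0.05. In muscle 9 of 10 were higher, against 17.4%, and in kidney 6 of 10, against 21.9%. In lung 10 of 10 were lower, against 13.7%, in liver 7 of 10, against 15.4%, and in adipose tissue 6 of 10, against 7.95%. Over the 60 pairs of an end and a tissue, 48 were called, against 30.4% of such pairs among all tested sites, and 50 of 60 with regions joined by overlap, against 30.6%. In bulk tissue, more cells rich in mitochondria and more mitochondrial RNA per cell cannot be told apart.

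As shares of mitochondrial tags, 18 of the 60 pairs were called, against 52.5% of pairs among all tested sites, and 13 of 60 with joined regions, against 53.9%. The share test sets every site against the mitochondrial total, so nuclear sites shift as a body wherever that total differs: the median log2 difference of all tested sites was -2.10 in muscle and 2.71 in lung. Between 26.0% of all tested sites, in adipose tissue, and 79.2%, in lung, were called in either direction in it, which also makes the adjustment lighter in such a fit. The background percentages below are therefore mostly those of nuclear sites that shift as a body. Over the 567 tested mitochondrial ends, those called in share ranged from 30 higher and 154 lower in adipose tissue to 196 higher and 19 lower in kidney. Of all tested sites, 22.4% were higher and 3.63% lower in adipose tissue, and 15.5% were higher and 15.8% lower in kidney.

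Adipose tissue had the most called main ends in share, with 1 main end higher, against 22.4% of all tested sites, and 6 lower, against 3.63%. The Nd4 end was higher, with 35.9% in the knockout and 29.1% in the wild type against 8.42% to 21.4% in the other 10 libraries (log2 difference 1.24, standard error 0.38, edgeR adjusted p = 0.0122). Without the knockout adipose library the difference was 1.02 and the call was lost (adjusted p = 0.211). The end before tRNA-Met was lower, with 4.29% in the knockout and 5.11% in the wild type against 12.5% to 33.7% in the other 10 (log2 difference -2.17, standard error 0.49, edgeR adjusted p = 0.00062).

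Tailed tRNA and rRNA ends were lower in adipose tissue as well. The tRNA-Ser2 end had 0.0834% in the knockout and 0.118% in the wild type against 0.430% to 2.73% in the other 10 libraries (log2 difference -3.76, standard error 0.56, edgeR adjusted p = 9.83e-07). The tRNA-Val end differed by -2.21, the end within the 12S rRNA by -2.18, and the 12S rRNA end by -1.68 on the log2 scale. The 16S rRNA end differed by -1.39 (edgeR adjusted p = 0.0325), but its libraries, at 1.30% in the knockout and 2.98% in the wild type, overlapped those of other tissues. The 12S rRNA call was lost without wild-type adipose tissue (log2 difference -1.53, adjusted p = 0.0643). That of the 16S rRNA end was lost without any one of 4 libraries, and without knockout adipose tissue its difference was -0.75 (adjusted p = 0.523); the other 3 were wild-type muscle, wild-type kidney and knockout liver, with adjusted p from 0.0563 to 0.0583.

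Liver had the highest 12S rRNA share, 4.14% in the knockout and 2.51% in the wild type, above the 0.393% to 1.61% of the other 10 libraries (log2 difference 1.64, standard error 0.35, edgeR adjusted p = 0.000152). The 16S rRNA end was also higher, by 1.03, and the tRNA-Val end was lower, at -1.30 on the log2 scale. Of all tested sites, 45.9% were called higher and 5.67% lower in liver. The 16S rRNA difference rested on the knockout liver library, without which it was 0.08 (adjusted p = 1.00). It was also lost without the knockout muscle, lung, adipose or kidney library, with adjusted p from 0.0638 to 0.0733. The tRNA-Val call was lost without wild-type liver (-0.85, adjusted p = 0.325).

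Heart had the highest share of the end within the 12S rRNA, 2.16% in the knockout and 2.62% in the wild type against 0.242% to 1.65% elsewhere (log2 difference 1.65, standard error 0.35, edgeR adjusted p = 0.000138). With the ends of tRNA-Ser2 and tRNA-Val it made 3 higher and 0 lower main ends in heart, against 5.24% and 57.5% of all tested sites. The tRNA-Ser2 difference was 1.48, and 0.51 without knockout heart (adjusted p = 0.475). The tRNA-Val difference was 0.89 (edgeR adjusted p = 0.0368) and was lost without any one of 6 libraries, namely both heart libraries, wild-type liver, wild-type kidney, knockout muscle and knockout lung, with adjusted p from 0.0546 to 0.292.

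The tRNA-Val end was also higher in muscle, by 1.05, and in lung, by 1.10 on the log2 scale, where the background of sites called higher was 5.42% and 78.9%. Without the wild-type library of the tissue the difference was 0.72 in muscle (adjusted p = 0.303) and 0.79 in lung (adjusted p = 0.231). The tRNA-Ser2 end was higher in lung by 0.96 and lost its call without either lung library or without knockout muscle (adjusted p from 0.0536 to 0.305). In kidney, against 15.5% of all sites called higher, the tRNA-Ser2 end was higher by 1.50 and the end before tRNA-Met by 1.01 (edgeR adjusted p = 0.0399). The tRNA-Ser2 call in kidney was lost without wild-type kidney (1.28, adjusted p = 0.110), and the tRNA-Met call without any one of the liver, lung or kidney libraries or knockout muscle (adjusted p from 0.0583 to 0.393).

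Of the 18 calls in share, 6 held each time a single library was left out: the end within the 12S rRNA in heart, the 12S rRNA end in liver, and the ends before tRNA-Met, at tRNA-Val, at tRNA-Ser2 and within the 12S rRNA in adipose tissue. The Nd1 end, the Cytb end and the end before Cytb had no call in share in any tissue. Even so, both adipose libraries were above the other 10 at the Cytb end. They had 30.85% in the knockout and 30.76% in the wild type, against 11.09% to 25.53% (edgeR adjusted p = 0.144). Both kidney libraries were below the other 10 there, with 11.28% in the knockout and 11.09% in the wild type, against 15.74% to 30.85% (edgeR adjusted p = 0.0832).

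The balance of neighbouring ends put the same differences in another form. These ratios were chosen after the values were seen and carry no test. The end before tRNA-Met lies just downstream of the Nd1 end. It had 0.328 times the tags of the Nd1 end in knockout and 0.236 times in wild-type adipose tissue, 2.58 and 3.38 times in knockout and wild-type kidney, and 3.81 and 1.32 times in knockout and wild-type heart. In mESC the ratio was 0.00216 and in 3T3 0.00219. Nd4 over Cytb was steadier, from 0.570 to 1.17 in the 12 tissue libraries with a median of 0.787.

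The cell lines showed another pattern than any tissue, with 1 library each and no test. Of the 10 main ends, 1 was above the range of the 12 tissue libraries in share, 6 were below it and 3 were inside it in each line. The shares of a library have a common total, so a high share at 1 end lowers those of the others. The Nd1 end was above, with 71.7% in mESC (95% interval 71.4% to 72.0%) and 84.4% in 3T3 (84.2% to 84.5%) against at most 21.6% in a tissue. These intervals are exact binomial ones and cover counting error only. Over all tags of a library, the Nd1 end had 17410 CPM (counts scaled to equal library totals) in mESC and 61900 CPM in 3T3, against 3600 to 42170 CPM in the tissues, so mESC was inside the tissue range on that scale and 3T3 above it.

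The Nd4 end was nearly absent from the lines. It had 6 tags in mESC, a share of 0.00673% (95% interval 0.00247% to 0.0146%), and 61 tags in 3T3, a share of 0.0196%, against 8.42% to 35.9% in the tissues. The end before tRNA-Met held 0.155% in mESC and 0.185% in 3T3, against 4.29% to 33.7%. The tRNA-Val end had 13 tags in mESC and 10 in 3T3. Over all tags of a library, the Nd4 end had 1.63 CPM in mESC and 14.4 CPM in 3T3, against 5106 to 43380 CPM in the tissues, so it was lower without reference to the Nd1 end too.

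Tags elsewhere in the region joined around the Nd4 end were lower in the lines by less. They made up 0.162% of mitochondrial tags in mESC and 0.155% in 3T3, against 0.700% to 2.03% in the tissues. Cytb, read from the same precursor farther downstream, held 10.2% in mESC and 3.12% in 3T3, below the tissues by a far smaller factor than Nd4. Nd4 over Cytb was thus 0.000658 in mESC and 0.00629 in 3T3. The ends inside the tissue range in both lines were the 12S rRNA end, with 3.69% in mESC and 0.952% in 3T3, and the end before Cytb, with 0.699% and 0.676% in mESC and 3T3. The tRNA-Ser2 end was inside it in mESC only, and the 16S rRNA end in 3T3 only. Over all tags of a library, both of these values were below the tissues. The tRNA-Ser2 end had 32.7 CPM in mESC, against at least 75.1 CPM, and the 16S rRNA end 1018 CPM in 3T3, against at least 1173 CPM. Library preparation cannot be told apart from the kind of cell in these values.

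**Figure D5:**
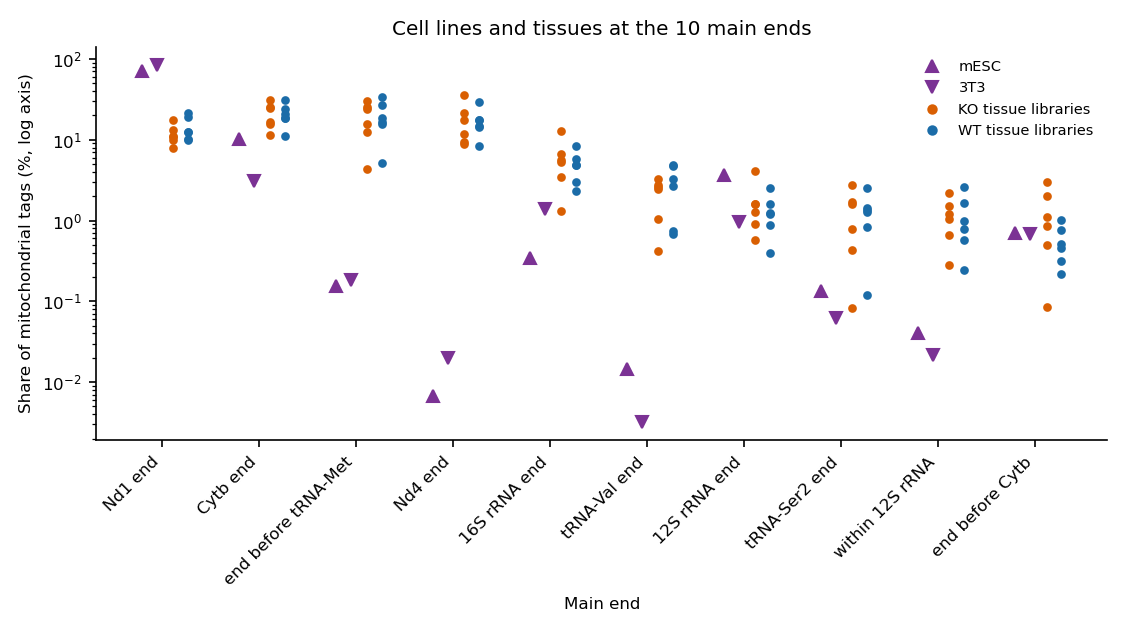
Share of mitochondrial tags (%, log axis) at the 10 main ends in mESC and 3T3 (purple, 1 library each) and in the 12 tissue libraries (orange: miR-22 knockout, blue: wild type). The lines stand above the tissues at the Nd1 end and far below them at the Nd4 end, the end before tRNA-Met and the tRNA-Val end.

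The minus strand held few tags but nearly as many distinct ends, 466 of the 947. It took 4.50% of mitochondrial tags in mESC and 2.10% in 3T3. In the tissues it took 0.372% at the lowest and 3.32% at the highest, with a median of 1.30%, and both adipose libraries were the lowest. The 5 most abundant minus-strand ends were in the control region, the non-coding stretch with the promoters and an origin of replication, at positions 16135, 16109 and 16039; at position 5019, the end of tRNA-Ala; and at position 15423, 1 nt before tRNA-Pro. None of the 5 was called between knockout and wild type by edgeR, where 0 of 139 tested minus-strand ends was called in either measure, with 7 at an unadjusted p under 0.05 in abundance and 11 in share.

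Across tissues, 4 of these 5 were higher in share in lung and 4 in kidney, and 4 were lower in adipose tissue. Of all tested sites, 78.9% were higher in lung, 15.5% higher in kidney and 3.63% lower in adipose tissue, mostly nuclear sites that shift as a body. Of the 139 tested minus-strand ends, 28 were higher in share in lung, 83 were higher in kidney and 40 were lower in adipose tissue. In abundance, 0 of the 139 were higher in lung and 73 were lower, against 25.2% and 13.7% of all tested sites. The rise in lung was thus one of share only. In kidney 110 were higher in abundance, against 21.9%, and in adipose tissue 70 were lower, against 7.95%. The end at 16135 held 0.917% in knockout and 0.689% in wild-type lung, and 0.0245% and 0.0976% in knockout and wild-type adipose tissue (edgeR adjusted p = 1.35e-06 in lung and 0.000386 in adipose tissue). The tRNA-Ala end held 0.748% in knockout and 0.668% in wild-type lung, and 0.0431% and 0.0448% in adipose tissue. The end before tRNA-Pro held 0.358% and 0.309% in knockout and wild-type lung. Both lung libraries were above the other 10 at each of these 3 ends, and both adipose libraries were below them. The adipose call at 16135 was lost without knockout adipose tissue (adjusted p = 0.0688), and that at 16039 without either adipose library (0.0670 and 0.109). The lung call at 16109 was lost without wild-type lung (log2 difference 0.80, adjusted p = 0.196). In kidney, calls were lost without the knockout library at 16109 (adjusted p = 0.297) and 16135 (0.115), and without the wild-type library at the tRNA-Ala end (0.125).

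The control-region end at 16109 set the cell lines apart. This end held 2.11% of mitochondrial tags in mESC and 0.577% in 3T3, against 0.0109% to 0.232% in the tissues. Position 16109 was the most abundant of its 15 nt window in only 1 of 14 libraries, so these tags need not share a single end. The tRNA-Ala end was the reverse in 3T3, with 0.00386% (12 tags) against 0.0431% to 0.748% in the tissues. In mESC it held 0.0393% on 35 tags. At that count, mESC cannot be told apart from the lowest tissue value. Among smaller plus-strand ends, mESC stood out at position 15464 in the control region, with 1.16% against at most 0.203% in a tissue, and at position 6171 within Co1, with 73 tags. 3T3 stood out at position 15422, opposite tRNA-Pro, with 0.645% against at most 0.162% in a tissue and 0.191% in mESC. It also stood out at position 2182 within the 16S rRNA, with 0.232% against at most 0.0444%. At position 15442 in the control region both lines were above the tissues. There 3T3 had 31 tags (0.00998%) and mESC 15 tags (0.0168%), against at most 0.00294% in a tissue. These ends were picked for their ratio to the tissues, so the values are a description.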

How the data were processed

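Total RNA from 6 tissues of miR-22 knockout and wild-type mice and from mESC and 3T3 was made into 3P-seq libraries, per the labels' protocols. Per the submitters' processing notes, CASAVA 1.7 called bases and Bowtie aligned to mm9. The version of Bowtie and the grouping of tags into sites are not given in the sources used here. Column 4 of each deposited list holds an estimated count of tags for the site, unscaled, which was rounded to a whole number after summing. The track lines name an offset of 1, per the file headers, which was applied to positions here; mESC comes without a track line, and its ends fell on the same positions.

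Entries on chrM were joined by overlap, as the design asked, and then resolved into 3′ ends within 15 nt, a step chosen after the joined regions were seen to chain. The 37 mitochondrial genes came from a RefSeq table of another build (GRCm38.p6) and served only for names and distances, since the mouse mitochondrial reference is the same in both; all 37 matched. Sites of the whole genome were filtered with filterByExpr (minimum count 10), scaled by TMM or to the mitochondrial total, and tested in R 4.3.3 with edgeR 4.0.16, with terms for tissue and genotype, over the 12 tissue libraries. This left 5 residual degrees of freedom. The quasi-likelihood fit also draws the variance of each site toward a trend over all tested sites, most of them nuclear. Benjamini-Hochberg adjustment ran over the 24374 ends and sites tested (23856 with joined regions), and a call is an adjusted p under 0.05. DESeq2 1.42.0, other scalings, no filter, no tissue term and leaving out libraries were alternatives. The genotype fits were also run on counts simulated from means and dispersions fitted to these same libraries. Changes were set only at well-covered sites there, so that run is no test of the sparsest ends. CPM values are tags over the deposited library total, computed here. Precision follows depth: shares of single libraries have exact binomial 95% intervals, which cover counting error only, as tags carry no molecular identifiers.

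The sites, lists and rules were chosen with earlier results of these data known. Named ends are those of at least 0.5% mean share. Among smaller ends with at least 20 tags in a library, they are the 5 of smallest genotype p, the 3 per cell line of largest ratio to the tissues and the 5 most abundant on the minus strand.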

Additional observations from a re-analysis of the deposited data

Results flagged for a closer look

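The share of the 12S rRNA end in the knockout libraries held a value far from the rest: 4.14% in knockout liver, against 1.61% in the next highest of the 6 knockout libraries, a median of 1.44% and a lowest value of 0.577%. The gap to the next library was 0.710 of the whole range, which is above Dixon's 95% critical value for 6 samples. In all, 22 groups of 6 libraries were examined in this way, and chance alone marks about 1 group in 20. Wild-type liver had 2.51%, the highest of the 6 wild-type libraries, and knockout liver also had the highest 16S rRNA share.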

How the results depend on the processing

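The labels give no replicate numbers to use as a block; knockout and wild type were paired by tissue instead, through the tissue term and the sign-flip test. With 1 library per tissue and genotype, a lone library left after omission is assumed to vary like the others. Genotype calls at the 10 main ends and regions stayed at 0 in every alternative run, and the smallest adjusted p in share at the 10 main ends was 0.0731, before Cytb without the lung pair. Of 100 log2 values, 89 kept their sign. Without the tissue term the sign turned at the Nd4 end (0.037), the Cytb end (0.0065) and within the 12S rRNA (-0.00044). With 1 tissue pair left out, genotype log2 values ran from -0.170 to 0.123 at Nd4, -0.521 to 0.0226 at tRNA-Ser2, -0.100 to 0.0559 at Cytb, -0.188 to 0.338 at 16S rRNA and -0.273 to 0.0078 before tRNA-Met, and that of the mitochondrial share of a library from -0.168 to 0.0189. The causes were not tested.

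Tissue calls in share at joined regions numbered 13, against 23 with DESeq2 and 23 with tags within 15 nt of the position. With 1 library left out they ran from 10 to 16, and 14 to 21 at ends; in abundance from 44 to 53, and 44 to 49 at ends. Of 270 alternative values of the 18 tissue calls, 228 kept the call and 42 lost it, and none changed sign. Tags within 15 nt of the position of the region that holds the Nd1 end gave 0.155% in mESC and 0.185% in 3T3, since that position is the end before tRNA-Met. Without the most abundant site in the total, the shares in mESC were 36.2% at Cytb, 0.548% before tRNA-Met and 0.0238% at Nd4, and in 3T3 19.97%, 1.18% and 0.126%. Among the 567 tested mitochondrial ends, 5 genotype calls in share became 7 without the most abundant site, 1 with DESeq2, 0 without the tissue term and 15 with no filter. The end called by DESeq2 was none of the 5. A threshold of 1% on the mean share gives 8 main ends and 6 regions, and one of 0.1% gives 48 and 19.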
